A study of Mus musculus with 270 samples.

Results

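Heart and skeletal muscle, the striated muscles of the body, were compared at 3 months (M) in the same 7 male mice. The members were found by their labels: the 7 heart libraries and the 7 skeletal muscle libraries of the mice aged 3 M, 14 of the 270 libraries of the series, paired by the number of the mouse. The mice were wild-type C57BL/6J males bought as 1 cohort and carried no allele and no treatment. The other 38 mice of the series, aged 5 to 26 M, also gave 1 heart and 1 skeletal muscle library each (76 libraries), and they served to measure the same contrast again in animals that the first comparison did not use. The labels do not say which skeletal muscle or which heart chambers were taken. Whole pieces of tissue were powdered and polyadenylated RNA was sequenced, so each library mixes muscle cells with vessels, connective tissue, nerve and blood.

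Striated muscle contracts when myosin heads of the thick filament pull on actin of the thin filament, after calcium has bound the troponin complex. Heart and fast skeletal fibres build this machine largely from paralogous genes. They differ in myosin heavy and light chains, troponin I and T, calcium release channel, calcium pump and calcium buffer. Slow skeletal fibres share some of the heart forms, among them *Myh7*, *Myl3* and *Atp2a2*. Cardiomyocytes beat without pause, are coupled by gap junctions, let calcium in through the cell membrane at each beat and live mostly on fatty acids, lactate and ketone bodies. A fast skeletal fibre is switched on by its nerve at the neuromuscular junction, couples its membrane mechanically to calcium release and can draw on glycogen and glycolysis for short bursts.

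The values are RPM, the reads of a gene after the reads on genes of each library were scaled to 1000000, and a level below always means this unit. The libraries held 5134683 to 11157535 reads on genes in heart and 8373933 to 15874132 in skeletal muscle. Of 51810 genes listed, 11163 reached 5 RPM in at least 5 of the 14 libraries and were tested; they held 97.6% to 99.3% of the reads of each library. The markers fixed for each organ matched the labels in all 14 libraries. *Myh6*, the myosin heavy chain of the adult mouse heart (chr14:54941921-54966927, minus strand, GRCm38), had a lowest, median and highest level of 14960, 31402 and 45901 in heart and of 4.18, 5.85 and 9.15 in skeletal muscle. *Myh4*, the heavy chain of the fastest skeletal fibres (chr11:67238029-67260446, plus strand), had levels of 57186, 79242 and 99606 in skeletal muscle and of 0, 0 and 46.0 in heart. No value of one organ reached those of the other for either gene.

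Some heart libraries stood apart, and these facts touch several results. The recovered reads of 5 of the 7 heart libraries were the same, gene by gene, as those of the library labelled liver of the same mouse, and their *Myh6* levels place them with heart. The hearts of mice c1164 and c1190 are the exceptions, and their column names carry a suffix b that the sources used here do not explain. The heart of c1164 had a median correlation of 0.80 with the other hearts, against 0.91 to 0.95 for the other hearts. Markers of lung epithelium summed to 2649 RPM in it and to 51.0 to 584 in the other hearts. It also held the highest sums of kidney tubule (273, others at most 117), brain (402, others at most 138), hepatocyte (131, others at most 37.0) and Schwann cell markers (433, others at most 229) among the hearts. In a principal component analysis of all 45 hearts of the series, 24 mice fell on one side of the first component (50.0% of the variance) and 21 on the other. These sets held 4 and 3 of the mice of 3 M, and the 9 cardiomyocyte markers with values summed to 91858 to 99568 in the hearts of the first set and to 42922 to 67399 in those of the second. The sets were taken from these heart values themselves, so a difference between them in such markers tests nothing. Because of these libraries, the counts of called genes are also given without the mice of the suffix b and within these sets. For single genes, *Myh4* and changes of sign or call are given without those mice. Other values rest on all 7 hearts and may shift without them.

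Several well-known muscle genes have no value here. *Actc1* and *Tnnc1*, cardiac actin and the troponin C of heart and slow fibres, *Pln*, the inhibitor of the cardiac calcium pump, *Myom1*, *Xirp1*, *Cpt1b* and *Cox6a2* were listed at 0 in all 14 libraries. So were the 13 protein-coding genes of the mitochondrial genome, and the share of reads on them could not be compared. In GENCODE M21, 1412 protein-coding genes lay with all their exonic bases inside the span of other genes, and 1179 of them (83.5%) were at 0 in all 14 libraries, against 1506 of 14012 (10.75%) of the genes with no such overlap. Of the 6325 genes partly inside others, 267 (4.22%) were at 0, and 85 of the genes wholly inside passed the filter. A 0 of a gene wholly inside others is therefore not read as absence of its RNA. Why the genes named above and those of the mitochondrial genome are at 0 was not tested. Whether overlap alters the level of a gene was not tested either. Levels are therefore compared below between organs for the same gene, not between genes.

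Most of the transcriptome differed between the organs. Of the 11163 genes, 5611 (50.3%) were higher in heart and 1465 (13.1%) were higher in skeletal muscle at an adjusted p of 0.05 or less (limma with the mouse as a block, Benjamini-Hochberg). With a log2 difference of at least 1 as well, 3028 genes (27.1%) were higher in heart and 807 (7.23%) in skeletal muscle. This imbalance rests on the scaling. The 10 most abundant genes of a library took 24.2% to 31.5% of the reads in skeletal muscle and 8.01% to 17.7% in heart, and the median gene was 0.49 higher in heart on the log2 scale. With TMM scaling, which sets the bulk of genes equal, the median difference was -0.04, 2968 genes (26.6%) were higher in heart and 3234 (29%) in skeletal muscle. All 2968 genes higher in heart with TMM were among the 5611, and all 1465 genes higher in skeletal muscle in RPM were among the 3234. No gene called in one direction was called in the other by the second scaling. These shares of all genes are the background for the lists below. A gene that passed the filter only through the organ where it is high had to differ, so the counts of a list describe it and test nothing. Counts are given below for both scalings, and a log2 difference is heart minus skeletal muscle of log2(RPM + 1), with its standard error (SE) over 7 mice, unless TMM is named; it understates the change of genes at low level. In tissue libraries, fewer cells of a type and less RNA per cell cannot be told apart.

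The contractile proteins held the largest differences of the whole table. Among the 22 genes fixed for the thick filament, 10 were higher in heart and 12 in skeletal muscle with either scaling, each by a log2 difference of 1 or more. Of the 17 thin filament genes tested, 4 were higher in heart and 11 in skeletal muscle (4 and 12 with TMM). Beside both lists stand 50.3% and 13.1% of all genes (26.6% and 29% with TMM). The 10 largest differences in each direction, over all genes whose groups did not overlap, were mostly those of contraction and calcium handling: *Myh6*, *Tnni3*, *Tnnt2*, *Mybpc3*, *Fhl2*, *Mylk3*, *Dsp*, *Ryr2*, *Nppa* and *Myl2* in heart, and *Myh4*, *Tnnt3*, *Pvalb*, *Tnni2*, *Atp2a1*, *Mylpf*, *Actn3*, *Myoz1*, *Myh2* and *Ryr1* in skeletal muscle. The promoters of 6 genes that differed in opposite directions are shown here, 5 from these largest differences and that of *Casq2* (5.83), which is not among them: 4 from genes higher in heart and 2 from genes higher in skeletal muscle, to set the letters in front of such genes side by side. Each is the 250 bases before the RefSeq start (GRCm38.p6, 5′ to 3′ on the strand of the gene). The gene spans given above are from GENCODE M21, where starts can differ. The window of *Myh6* lies inside its span there, and that of *Myh4* ends short of its start. Capitals mark the E-box (CANNTG, bound by MyoD-family proteins among others), the M-CAT element (CATTCC), the MEF2 site and the CArG box of serum response factor, searched on both strands.
Myh6, chr14:54966608-54966857, minus strand: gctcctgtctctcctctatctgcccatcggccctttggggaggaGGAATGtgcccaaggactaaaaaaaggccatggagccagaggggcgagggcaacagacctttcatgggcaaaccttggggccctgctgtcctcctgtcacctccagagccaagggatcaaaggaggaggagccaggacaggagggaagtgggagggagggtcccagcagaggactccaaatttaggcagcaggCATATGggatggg
Tnnt2, chr1:135836084-135836333, plus strand: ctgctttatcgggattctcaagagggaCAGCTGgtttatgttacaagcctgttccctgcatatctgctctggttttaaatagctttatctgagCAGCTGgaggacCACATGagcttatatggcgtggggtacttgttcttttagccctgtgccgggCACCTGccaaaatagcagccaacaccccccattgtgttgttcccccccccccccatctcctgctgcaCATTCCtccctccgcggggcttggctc
Mybpc3, chr2:91117894-91118143, plus strand: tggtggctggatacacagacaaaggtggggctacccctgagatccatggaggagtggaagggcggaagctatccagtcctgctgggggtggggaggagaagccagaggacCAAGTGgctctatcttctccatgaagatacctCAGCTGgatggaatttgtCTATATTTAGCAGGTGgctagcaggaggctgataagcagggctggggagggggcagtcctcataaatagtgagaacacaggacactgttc
Casq2, chr3:102086165-102086414, plus strand: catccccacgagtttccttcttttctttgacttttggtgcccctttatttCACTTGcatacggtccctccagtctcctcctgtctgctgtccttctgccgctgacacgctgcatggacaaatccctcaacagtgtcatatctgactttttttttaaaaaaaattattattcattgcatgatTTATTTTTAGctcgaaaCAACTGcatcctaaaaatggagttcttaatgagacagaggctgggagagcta
Myh4, chr11:67237562-67237811, plus strand: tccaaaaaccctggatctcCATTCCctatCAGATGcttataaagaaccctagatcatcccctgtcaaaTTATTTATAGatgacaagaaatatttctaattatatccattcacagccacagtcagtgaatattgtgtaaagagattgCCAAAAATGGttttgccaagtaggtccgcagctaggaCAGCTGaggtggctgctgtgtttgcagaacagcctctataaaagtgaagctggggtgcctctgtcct
Pvalb, chr15:78206401-78206650, minus strand: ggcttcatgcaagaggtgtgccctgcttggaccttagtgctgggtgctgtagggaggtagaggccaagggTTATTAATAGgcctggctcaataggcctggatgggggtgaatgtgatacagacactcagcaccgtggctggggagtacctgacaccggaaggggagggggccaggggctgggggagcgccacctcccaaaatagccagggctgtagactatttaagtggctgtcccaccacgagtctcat
The window of *Myh4* held each of the 4 kinds of match, and those of *Mybpc3*, *Casq2* and *Pvalb* held 1 MEF2 site each, at 90, 69 and 180 bases before the start. *Tnnt2* and *Pvalb* have 2 windows in the table, and the first was taken. Of all 32851 windows, 66.2% held an E-box, 12.6% an M-CAT element, 2.92% a MEF2 site and 1.47% a CArG box. Among the windows of genes higher in skeletal muscle by a log2 difference of 1 or more (770 windows), 68.1% held an E-box and 4.55% a MEF2 site. Among those of genes higher in heart (3056 windows) the shares were 58.1% and 1.87%, and among those of all tested genes 57.8% and 1.92%. A match of letters is not evidence of binding.

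The motor proteins came first. In heart, *Myh6* was higher than in skeletal muscle by a log2 difference of 12.15 ± 0.20 (adjusted p = 5.8e-14, limma). *Myh7*, the slow heavy chain shared by heart and slow fibres, had levels of 329, 519 and 727 in heart and 24.7, 51.6 and 124 in skeletal muscle (log2 difference 3.26 ± 0.24), although 75.3% of its exonic bases lie inside other genes. The heavy chains of skeletal muscle lie in 1 cluster on chromosome 11, and all 6 of its genes tested (*Myh3*, *Myh2*, *Myh1*, *Myh4*, *Myh8* and *Myh13*) were higher in skeletal muscle. *Myh4* differed by -14.66 ± 0.68 (adjusted p = 1.5e-09), the largest log2 difference of the table. *Myh2*, of fast oxidative fibres, had levels of 1296, 1874 and 3197 in skeletal muscle and at most 3.32 in heart. *Myh1* reached 140, 336 and 793 in skeletal muscle and at most 0.851 in heart. The embryonic *Myh3* was low in both, with medians of 5.64 and 0.670, and its groups overlapped. *Myh4* in heart was uneven: the 2 hearts with the suffix b had 28.8 and 46.0 RPM and the other 5 at most 0.340, and without these mice the difference was -16.15.

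Light chains and thick filament regulators split the same way. *Myl2*, the ventricular regulatory light chain, had levels of 3278, 5201 and 7218 in heart and 7.72, 23.1 and 57.6 in skeletal muscle. Its skeletal counterpart *Mylpf* had levels of 6146, 7561 and 10065 in skeletal muscle and 0.470, 1.56 and 4.73 in heart (log2 difference -11.56 ± 0.23). *Myl7*, the atrial regulatory light chain, was found in every heart, between 39.9 and 182, and had 0 reads in all 7 skeletal muscle libraries, so it was at least 2358-fold higher in heart when the floor is set at 3 reads over the group. The essential chains *Myl3* (5.80 ± 0.22) and *Myl1* (-7.46 ± 0.18) went opposite ways. Myosin-binding protein C followed: *Mybpc3* had levels of 659, 1329 and 2601 in heart and at most 0.953 in skeletal muscle, and *Mybpc2* had levels of 5148, 6233 and 8927 in skeletal muscle and 4.12, 29.4 and 37.1 in heart. The kinases that phosphorylate the regulatory light chain were as sharply divided, *Mylk3* at 8.89 ± 0.27 and *Mylk2* at -9.10 ± 0.15.

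**Figure D1:**
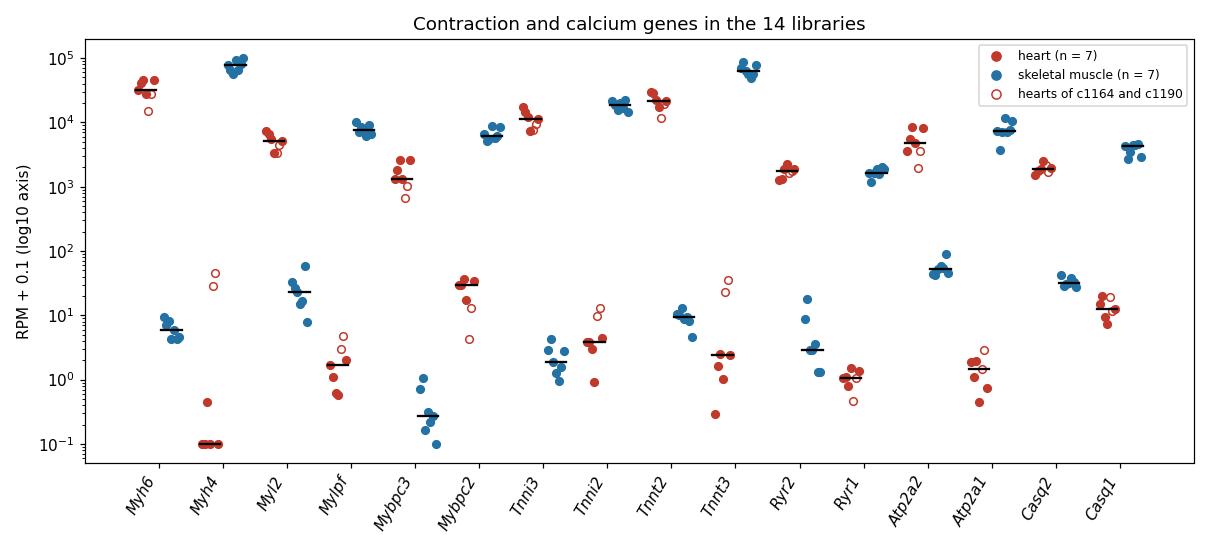
Levels of 16 genes of contraction and calcium handling in each library (RPM + 0.1, log10 axis, so that a library at 0 sits at 0.1). Each point is 1 library, red for heart (n = 7) and blue for skeletal muscle (n = 7), and the bar is the median. The groups do not overlap for any of the 16 genes, and the hearts of c1164 and c1190, drawn as open circles, are the 2 upper hearts for *Myh4*.

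The thin filament was split in the same way, with tropomyosin as an exception. Troponin I, the inhibitory subunit, was read from *Tnni3* in heart (levels of 7400, 11295 and 17316, against 0.836, 1.76 and 4.13) and from *Tnni2* in skeletal muscle (14613, 18690 and 22257, against 0.822, 3.70 and 12.9). *Tnni3* had the smallest adjusted p of all genes (log2 difference 11.85 ± 0.13, adjusted p = 1.8e-15). Troponin T, which ties the complex to tropomyosin, came from *Tnnt2* (11.04 ± 0.19) and *Tnnt3* (-13.73 ± 0.55). Tropomyosin differed in kind: *Tpm2* was 123-fold higher in skeletal muscle, with levels of 10914, 12099 and 14125 against 70.2, 108 and 149. *Tpm1* was abundant in both organs, with levels of 10221, 20757 and 33951 in heart and 33525, 42480 and 47657 in skeletal muscle, and it was higher in skeletal muscle (-1.14 ± 0.26, adjusted p = 0.0020) with overlapping groups. *Tpm3* did not pass the test (0.39 ± 0.19, adjusted p = 0.092). Skeletal actin, *Acta1*, had levels of 11358, 14566 and 28074 in skeletal muscle and 72.5, 104 and 522 in heart, although all of its exonic bases lie inside another gene in GENCODE M21. The giant ruler proteins exchanged places, with *Neb* at 3117, 4657 and 7579 in skeletal muscle against 7.26, 10.5 and 16.0 in heart, and its small relative *Nebl* at 541, 697 and 886 in heart against 0.609, 5.12 and 18.9.

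At the Z disc and M band most genes leaned to skeletal muscle: 5 of 22 tested were higher in heart and 16 in skeletal muscle (4 and 17 with TMM), with a list median of -1.34. The shares of all genes were 50.3% and 13.1% (26.6% and 29% with TMM). *Actn3*, the alpha-actinin of fast fibres, had levels of 4462, 5590 and 6444 in skeletal muscle and at most 2.99 in heart (-11.37 ± 0.17). *Actn2*, its partner found in all striated muscle, was less divided, with levels of 560, 1160 and 1778 in heart and 310, 446 and 630 in skeletal muscle (1.39 ± 0.24). The calsarcins, small Z disc proteins that bind calcineurin, were split into *Myoz2* for heart (3.99 ± 0.24) and *Myoz1* for skeletal muscle (-10.55 ± 0.16). The stretch-responsive ankyrin repeat genes did likewise, *Ankrd1* with levels of 1433, 3831 and 8277 in heart against 29.5, 43.3 and 104, and *Ankrd2* with 37.9, 64.4 and 98.8 in skeletal muscle against at most 0.779. *Myom2* of the M band had nearly the same level in both organs in RPM (-0.01 ± 0.19, adjusted p = 0.97) and was lower in heart with TMM (-0.58, adjusted p = 0.039). *Tmod1*, the pointed-end cap of the thin filament, behaved in the same manner (0.05 ± 0.16 RPM, -0.51 with TMM). Among the largest differences outside the list, *Fhl2*, a LIM protein of the sarcomere, had levels of 1367, 1873 and 3574 in heart against 1.19, 2.56 and 5.40, and *Dsp*, desmoplakin of the desmosome that joins cardiomyocytes, had 493, 871 and 1534 against 0.425, 0.769 and 8.36.

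Paralogues were then compared pair by pair. Of 36 pairs of a heart-type and a skeletal-type gene, 31 had both genes tested. In 24 of the 31 pairs the first gene was higher in heart and the second in skeletal muscle, with either scaling, and no pair was called the other way round. The 7 other pairs were *Tpm1* with *Tpm2*, *Tmod1* with *Tmod4*, *Jph2* with *Jph1*, *Hk1* with *Hk2*, *Eno1* with *Eno3*, *Cox7a1* with *Cox7a2* and *Cox8b* with *Cox8a*. In the pairs of *Tpm1*, *Tmod1*, *Jph2* and *Eno1* the heart-type gene was not higher in heart, whereas the skeletal-type gene differed by -6.94, -4.73, -3.48 and -2.34. The pairs were listed from textbook knowledge of these organs, so their direction checks the libraries and is no finding.

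**Figure D2:**
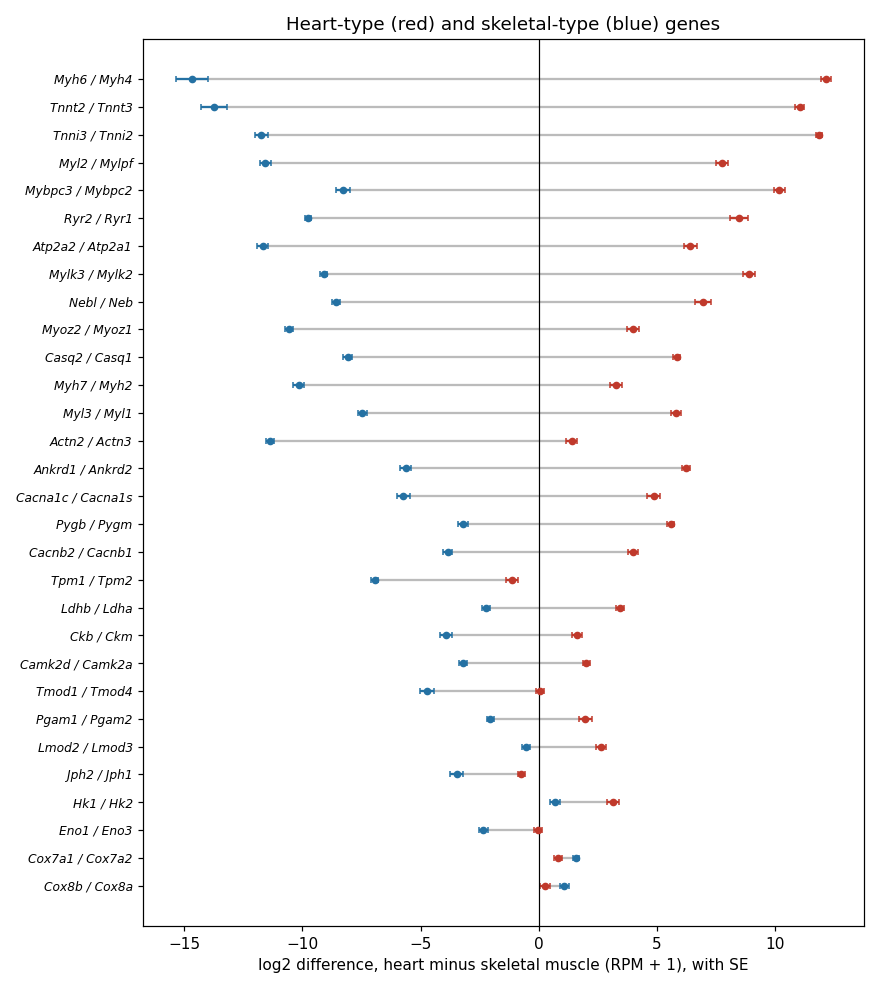
Log2 difference (heart minus skeletal muscle, in RPM, with SE bars over 7 mice) of both genes of 30 of the 31 paralogue pairs tested (1 pair is not reported here), heart-type gene in red and skeletal-type gene in blue, ordered by the gap between them. The pairs of *Myh6* (12.15) and *Myh4* (-14.66) and of *Tnnt2* (11.04) and *Tnnt3* (-13.73) lie widest apart, while those of *Cox7a1* and *Cox7a2* and of *Cox8b* and *Cox8a* lie on the same side of 0.

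Calcium handling genes leaned to skeletal muscle as a list, while several steps were read from another paralogue in each organ. Of 30 genes tested, 8 were higher in heart and 19 in skeletal muscle (8 and 20 with TMM), with a list median of -1.99. The share higher in heart is below the 50.3% of all genes in RPM and near the 26.6% with TMM. That higher in skeletal muscle is above the 13.1% and 29% of all genes. The release channel of the sarcoplasmic reticulum was *Ryr2* in heart, with at least 1277 and a median of 1736 against 1.20, 2.83 and 17.6, and *Ryr1* in skeletal muscle, with 1196, 1649 and 2045 against 0.358, 0.974 and 1.41. *Ryr3* was low in both, between 1.93 and 23.0, and did not pass the test (0.40 ± 0.28). The calcium pump that refills the store was *Atp2a2* in heart (1953, 4697 and 8324 against 42.4, 51.9 and 90.0) and *Atp2a1* in skeletal muscle (3674, 7441 and 11787 against 0.352, 1.34 and 2.80). The store protein calsequestrin was *Casq2* in heart (5.83 ± 0.15) and *Casq1* in skeletal muscle (-8.08 ± 0.20). Membrane calcium channels followed, *Cacna1c* of the cardiac L-type channel at 4.86 ± 0.26 and *Cacna1s*, the voltage sensor of skeletal muscle, at -5.73 ± 0.28, each with its beta subunit (*Cacnb2* 3.98 ± 0.22, *Cacnb1* -3.85 ± 0.19).

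*Stac3*, an adaptor of the voltage sensor of skeletal fibres, had levels of 298, 371 and 466 in skeletal muscle and at most 1.90 in heart, and the gamma subunit *Cacng1* had 172, 255 and 326 against at most 0.779. *Pvalb*, parvalbumin, the soluble calcium buffer of fast fibres, had levels of 11597, 22987 and 44622 in skeletal muscle and 0, 1.51 and 24.0 in heart, a 5545-fold difference on this scale. *Sln*, sarcolipin, a small inhibitor of the calcium pumps, went to heart, with levels of 15.0, 31.5 and 67.8 against 0, 0.425 and 1.02. The sodium-calcium exchanger *Slc8a1*, which returns calcium across the membrane in cardiomyocytes, was 7.81-fold higher in heart, and its relative *Slc8a3* was 73.5-fold higher in skeletal muscle. The calmodulin kinase genes exchanged as well, *Camk2d* for heart (2.01 ± 0.14) and *Camk2a* for skeletal muscle (-3.21 ± 0.16). *Hrc*, the histidine-rich calcium-binding protein of the store, did not pass the test in RPM (-0.16 ± 0.25, adjusted p = 0.60).

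Excitation and its spread came next. Of 23 channel and gap junction genes tested, 14 were higher in heart and 6 in skeletal muscle (12 and 8 with TMM). The share higher in heart is near the 50.3% of all genes in RPM and above the 26.6% with TMM, and the share higher in skeletal muscle with TMM is near the 29% of all genes. *Scn4a*, the sodium channel of the skeletal fibre, had levels of 103, 201 and 267 in skeletal muscle and 2.53, 9.47 and 23.0 in heart. *Gja1*, connexin 43 of the cardiac gap junction, had levels of 642, 923 and 1198 in heart and 15.9, 23.7 and 31.9 in skeletal muscle (5.21 ± 0.18). The acetylcholine-gated potassium channel that slows the heartbeat is built from *Kcnj3* and *Kcnj5*, which were higher in heart by 5.65 ± 0.23 and 7.06 ± 0.19. *Chrm2*, the muscarinic receptor that opens it, had levels of 166, 205 and 225 in heart and 0, 0.850 and 4.02 in skeletal muscle. *Clcn1*, the chloride channel that stabilises the resting skeletal fibre, was higher in skeletal muscle (-3.98 ± 0.35). *Kcnj2*, an inward rectifier potassium channel, did not pass the test in RPM (0.17 ± 0.17) and was lower in heart with TMM (-0.39). The pacemaker channel gene *Hcn4* was below the filter, with 272 reads over the 7 hearts.

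At the neuromuscular junction 6 of 11 genes tested were higher in skeletal muscle and 2 in heart (6 and 1 with TMM), beside 13.1% of all genes higher in skeletal muscle in RPM and 29% with TMM. The shares of all genes higher in heart were 50.3% and 26.6%. The acetylcholine receptor subunits *Chrna1* (levels of 7.26, 9.84 and 13.2 against at most 0.386) and *Chrne* (7.83, 12.0 and 14.6 against at most 0.511) and the organising kinase *Musk* (15.6, 18.2 and 23.8 against at most 2.60) were near 0 in heart. *Agrn*, the nerve-derived organiser that other tissues also make, was higher in heart (1.93 ± 0.22). *Lrp4*, its receptor, did not pass the test (0.36 ± 0.24).

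The transcription factors of each organ came next. Of 14 cardiac factors, 11 passed the filter and were higher in heart with either scaling, and of 14 skeletal muscle factors, 12 passed and were higher in skeletal muscle. The other 3 and 2 were below the filter. Several factors passed through 1 organ alone and so had to differ, which makes these counts a description. *Nkx2-5*, a founder of the cardiac lineage, had levels of 16.5, 18.7 and 30.2 in heart and no read in skeletal muscle, at least 521-fold higher in heart. *Gata4* (63.0, 97.2 and 139 against 0.102, 0.683 and 5.19) and *Tbx20* (165, 216 and 247 against 0, 0.597 and 9.31) were also close to absent from skeletal muscle. In skeletal muscle the myogenic factor *Myod1* had levels of 11.3, 17.7 and 21.7 and *Myog* of 3.42, 7.31 and 19.7, and neither had a read in heart, which makes them at least 297-fold and 150-fold higher in skeletal muscle. *Myf6*, the member kept in adult fibres, had 87.1, 112 and 199 against 1 read in all hearts together, a ratio of pooled reads of 6682 (95% interval 1199 to 263960, counting error only). *Lbx1*, of migrating limb muscle precursors, had 44.7, 79.2 and 166, also against 1 read. *Tbx15* (797, 1081 and 1458 against 0.838, 2.73 and 7.73) was read in every heart, at levels far below those of skeletal muscle. *Pax7*, a marker of satellite cells, the stem cells of muscle, had 5.03, 5.99 and 10.0 in skeletal muscle and at most 1.97 in heart. Of 4 satellite cell markers tested, 2 were higher in skeletal muscle (3 with TMM) and 1 in heart with either scaling. The sums of that list overlapped, with 94.1 to 235 in heart and 74.5 to 140 in skeletal muscle.

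Secreted factors and receptors gave 15 genes higher in heart and 5 higher in skeletal muscle out of 25 tested (14 and 7 with TMM). In RPM both shares are near the 50.3% and 13.1% of all genes, and with TMM the share higher in skeletal muscle is near the 29% of all genes. *Nppa* and *Nppb*, the natriuretic peptides by which the heart lowers blood volume, had medians of 431 and 126 in heart and at most 0.955 and 0.302 in skeletal muscle. *Nppa* spread widely between hearts, from 118 to 889, and 69.3% of its exonic bases lie inside another gene. *Corin*, the protease that activates these peptides, was higher in heart by 6.01 ± 0.26. *Mstn*, myostatin, the secreted brake on muscle growth, had levels of 63.0, 71.5 and 102 in skeletal muscle and at most 0.352 in heart. *Fndc5*, the precursor of irisin, was higher in heart (316, 333 and 588 against 41.2, 53.8 and 63.0). *Igf1* and the thyroid hormone receptor *Thrb* did not pass the test in RPM (0.07 ± 0.17 and 0.11 ± 0.17).

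The energy genes divided by fuel. Glycolysis leaned to skeletal muscle, with 13 of 22 genes tested higher there and 6 higher in heart (16 and 5 with TMM) and a list median of -1.27, against 0.49 over all genes. The shares of all genes were 13.1% higher in skeletal muscle and 50.3% higher in heart (29% and 26.6% with TMM). *Pfkfb3*, which makes the activator of phosphofructokinase, had levels of 151, 299 and 783 in skeletal muscle and 3.90, 11.1 and 22.7 in heart (-4.92 ± 0.16). The aldolase *Aldoa* (8.67-fold), the enolase *Eno3* (5.07-fold), *Pfkm* (4.58-fold) and the mutase *Pgam2* (4.13-fold) were all higher in skeletal muscle. The forms used by other tissues were among those higher in heart, such as *Hk1* (8.81-fold) and *Pgam1* (3.90-fold). Lactate dehydrogenase, the enzyme at the branch between making and burning lactate, was exchanged: *Ldha* had levels of 1623, 1962 and 2402 in skeletal muscle against 228, 448 and 547, and *Ldhb* had 770, 1707 and 1901 in heart against 103, 132 and 150. *Slc2a4*, the insulin-responsive glucose transporter, did not pass the test in RPM (-0.30 ± 0.21, adjusted p = 0.23) and was lower in heart with TMM (-0.87, adjusted p = 0.0021).

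Glycogen genes showed the same lean, and the high-energy phosphate list did not. Of 11 high-energy phosphate genes tested, 5 were higher in heart and 4 in skeletal muscle (3 and 4 with TMM). Their list median was 0.41 in RPM and -0.08 with TMM, near the 0.49 and -0.04 of all genes. Of 18 glycogen genes, 13 were higher in skeletal muscle and 3 in heart (14 and 2 with TMM). Across all tested genes, 13.1% were higher in skeletal muscle and 50.3% in heart (29% and 26.6% with TMM). Glycogen phosphorylase was *Pygm* in skeletal muscle (3462, 4674 and 5110 against 236, 544 and 776), whereas *Pygb*, the form named after brain, had levels of 295, 431 and 604 in heart and 6.59, 7.14 and 10.9 in skeletal muscle (5.58 ± 0.15). Its activating kinase was higher in skeletal muscle in *Phkg1* and *Phka1* (log2 differences of -4.21 and -3.94). *Ckm*, cytosolic creatine kinase, had levels of 4158, 5050 and 6116 in skeletal muscle and 149, 421 and 501 in heart. *Ampd1*, the AMP deaminase of fast fibres, had 676, 867 and 1029 against at most 0.503. The mitochondrial creatine kinase *Ckmt2* went the other way in RPM (0.76 ± 0.18) but not with TMM (0.19, adjusted p = 0.48), and the creatine transporter *Slc6a8* did not pass the test (0.23 ± 0.28).

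Fatty acid genes leaned to heart. Of 33 tested, 26 were higher in heart and 2 in skeletal muscle (24 and 3 with TMM), with a list median of 1.93 RPM and 1.36 with TMM, against 0.49 and -0.04 over all genes. *Lpl*, which frees fatty acids from blood lipoproteins, had levels of 5892, 7736 and 10308 in heart and 589, 831 and 1241 in skeletal muscle. The fatty acid transporter *Cd36* had 1858, 1962 and 2228 against 200, 270 and 298 (2.96 ± 0.13), and the carrier *Fabp3* had medians of 3525 and 436. *Hadhb* of the trifunctional protein was 9.60-fold higher in heart, with 1 heart at 4824 and a median of 887. *Ucp3*, a mitochondrial carrier of muscle, was higher in skeletal muscle (-2.22 ± 0.44). *Pdk4*, the fasting-induced brake on pyruvate oxidation, spread from 163 to 1070 over the 14 libraries and did not pass the test (0.10 ± 0.38). Of 14 genes for ketone bodies and branched-chain amino acids, 11 were higher in heart and none in skeletal muscle (7 and none with TMM), led by *Bdh1* (2.28 ± 0.26) and *Oxct1* (1.83 ± 0.14), the enzymes that begin ketone use. For both lists, the share of all genes higher in heart was 50.3% in RPM and 26.6% with TMM.

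For the oxidative core the scaling decides how much was called. Of 24 genes of the tricarboxylic acid cycle, 23 were higher in heart in RPM and 12 with TMM, and none was higher in skeletal muscle with either scaling. *Idh2* stood out, with levels of 1676, 2080 and 5455 in heart and 237, 255 and 308 in skeletal muscle (3.50 ± 0.22). Of 35 subunits of complex I, 31 were higher in heart in RPM but only 7 with TMM, where 27 did not pass the test, and the list median of 0.69 was close to the 0.49 of all genes. *Ndufa9* (1.52 ± 0.14) and *Ndufc2* (1.45 ± 0.16) were called with either scaling, and *Ndufs7* (0.08 ± 0.15) did not pass in RPM. Of 13 subunits of complex IV, 12 were higher in heart in RPM and 8 with TMM, and of 16 subunits of the ATP synthase, 14 and 6. Of all genes, 50.3% were higher in heart in RPM and 26.6% with TMM. In RPM each of these lists lies above that share. With TMM complex I lies below it, and the cycle, complex IV and, less so, the ATP synthase lie above it. *Cox4i1* (3.10-fold, its exonic bases all inside another gene) and *Atp5g3*, a gene of the membrane ring (4.89-fold), were higher in heart with either scaling. The muscle-type subunit *Cox8b* did not pass (0.26 ± 0.20), and *Cox7a1* was higher in heart in RPM (0.81 ± 0.17) and not with TMM (0.25, adjusted p = 0.28).

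Regulators of mitochondria and of protein turnover completed the lists. Of 17 genes of mitochondrial biogenesis, 14 were higher in heart in RPM and 9 with TMM, above the 50.3% and 26.6% of all genes. *Ppargc1a*, the coactivator that drives mitochondrial genes, had levels of 217, 256 and 280 in heart and 63.9, 77.5 and 92.2 in skeletal muscle (1.69 ± 0.13), and its partner receptors *Esrrb* and *Esrrg* were higher in heart by 2.42 ± 0.29 and 1.74 ± 0.18. *Nrf1* did not pass (0.07 ± 0.18). Of the 14 genes of the 20S proteasome core, 10 did not pass the test in RPM, 2 were higher in heart and 2 in skeletal muscle, and with TMM 10 were higher in skeletal muscle, so no direction can be given for this complex. Among 16 ubiquitin ligases and autophagy genes, 7 were higher in heart and 9 in skeletal muscle (4 and 9 with TMM). The share higher in heart is below the 50.3% of all genes in RPM and near the 26.6% with TMM, and that higher in skeletal muscle is above the 13.1% and 29% of all genes. *Fbxo32*, atrogin-1, had levels of 757, 817 and 1024 in skeletal muscle and 148, 226 and 281 in heart, and the sarcomere-protecting *Klhl40* and *Klhl41* were higher in skeletal muscle (-2.79 ± 0.23 and -2.70 ± 0.17).

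**Figure D3:**
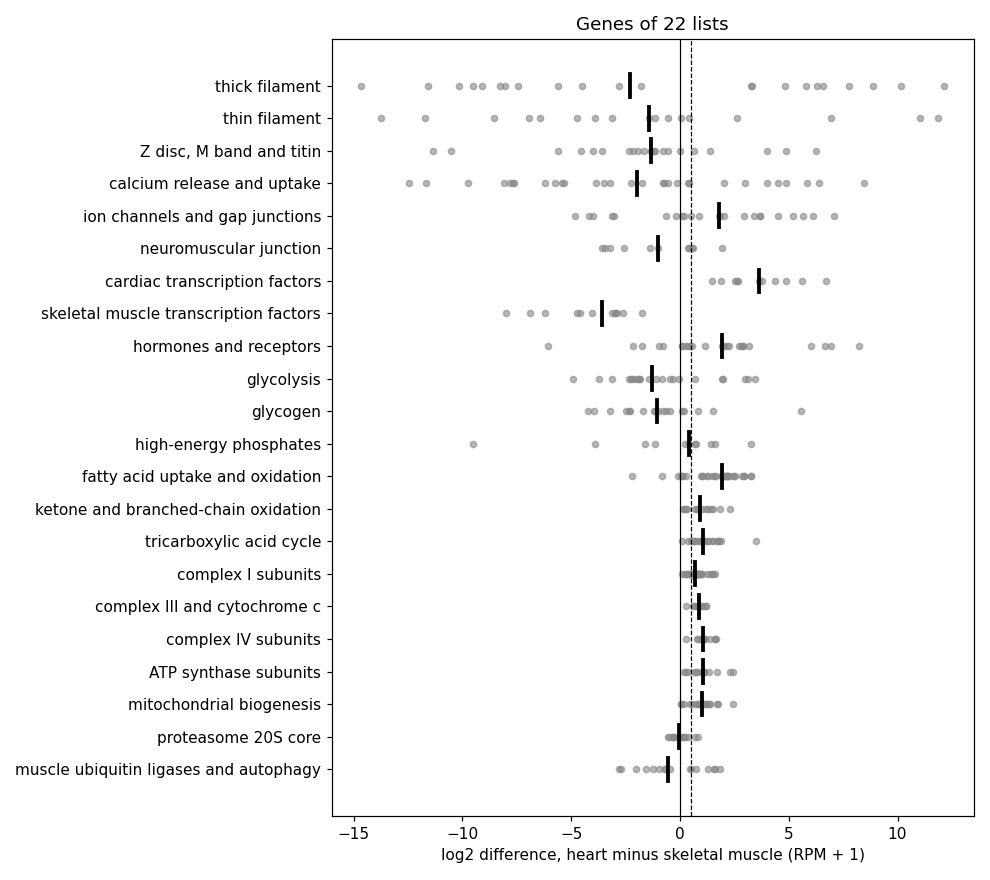
Log2 difference (heart minus skeletal muscle, in RPM) of each tested gene of 22 lists, 1 grey point per gene, with the median of the list as a black bar. The solid line marks 0, the dashed line the median of all 11163 genes (0.49 higher in heart), so that the lists of fuel oxidation lie at or right of it and those of glycolysis and glycogen left of 0.

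Markers of other cell types moved with the organ as well. Of 12 endothelial markers 10 were higher in heart with either scaling, for example *Pecam1* (236, 301 and 445 against 67.5, 86.3 and 103), and their sum ranged from 1244 to 1649 in heart and from 374 to 535 in skeletal muscle. Beside this list and those that follow stand 50.3% of all genes higher in heart in RPM and 26.6% with TMM. All 7 erythroid markers tested were higher in heart, with sums of 594 to 8176 against 28.6 to 333, and haemoglobin *Hba-a1* spread from 196 to 2643 between hearts. Its reads may be shared with the near-identical *Hba-a2*. All 5 markers of mesothelium and epicardium tested, genes of the sheet that covers the heart, were higher in heart, such as *Wt1* (20.1, 34.3 and 38.5 against at most 2.86). Of 11 fibroblast markers 5 were higher in heart in RPM and none in skeletal muscle, but with TMM 2 and 3, shares at or below the 50.3%, 26.6% and 29% of all genes. *Dcn*, the collagen-binding decorin, did not pass (0.05 ± 0.27). Macrophage markers gave 9 of 10 higher in heart (7 with TMM), beside the same 50.3% and 26.6% of all genes. Their sums were 263 to 511 against 97.4 to 340.

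In skeletal muscle 7 of 8 adipocyte markers were higher in RPM and 8 with TMM. Across all tested genes, 13.1% were higher in skeletal muscle and 50.3% in heart (29% and 26.6% with TMM). *Adipoq*, the adipocyte hormone adiponectin, had levels of 20.8, 52.0 and 142 in skeletal muscle and 0.358, 5.82 and 11.2 in heart, and the list summed to 341 to 1475 against 108 to 291. The Schwann cell list gave 3 genes higher in skeletal muscle and 2 higher in heart. Of 4 tendon markers tested, 3 were higher in skeletal muscle and 1 in heart with either scaling. *Thbs4* (50.3, 84.0 and 140 against 1.25, 14.2 and 23.3) was among those higher in skeletal muscle. Only 2 B cell markers were tested: the immunoglobulin gene *Ighm* (80.1, 109 and 141 against 8.57, 15.7 and 23.9) was higher in skeletal muscle, and the other did not pass the test. The part of these cell types in the differences of individual genes was not tested.

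Genes of organs that neither tissue should contain were read as well. All 5 lung epithelial markers tested were higher in heart, and *Scgb1a1*, the club cell secretory protein, had levels of 40.3, 265 and 2036 in heart and 0.939, 1.52 and 4.62 in skeletal muscle. The heart of c1164 held the highest values of this list, but *Scgb1a1* was above all 7 skeletal muscle libraries in each of the 7 hearts. All 6 testis germ cell markers tested were higher in heart: the list summed to 91.5 to 124 in the 5 hearts without the suffix b, to 0.0966 and 0.717 in the 2 with it, and to 3.29 to 12.4 in skeletal muscle. All 5 hepatocyte markers tested were higher in skeletal muscle, with *Alb* at 25.0, 33.7 and 57.9 against 0.470, 5.87 and 48.1. These genes are counted among the called genes above, 50.3% of all genes higher in heart and 13.1% in skeletal muscle in RPM. Their source was not tested.

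**Figure D4:**
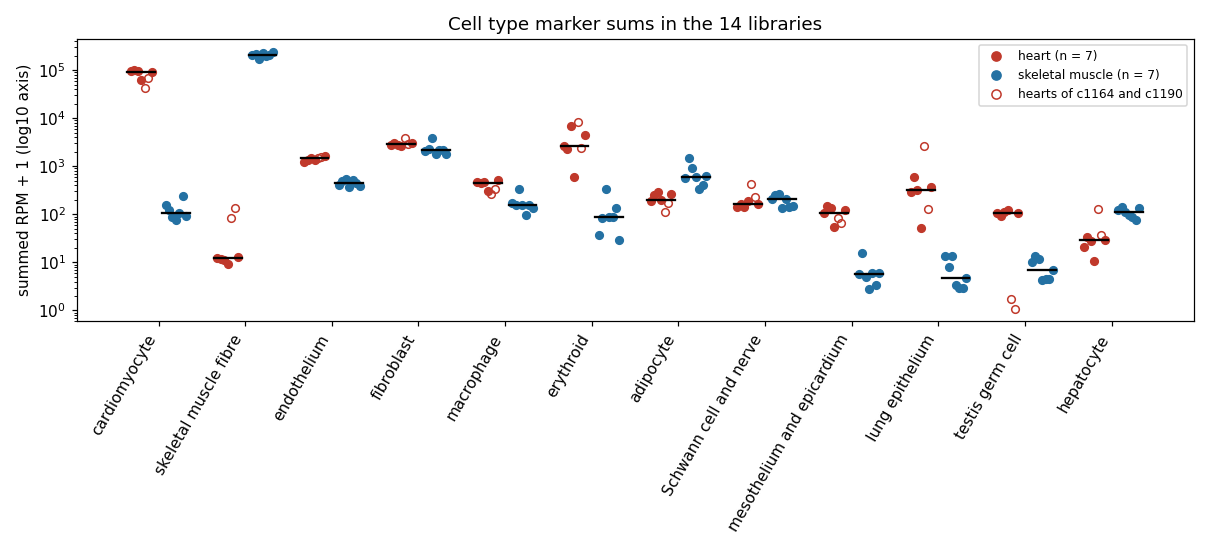
Summed level (RPM + 1, log10 axis) of the markers of 12 cell types in each of the 14 libraries, red for heart and blue for skeletal muscle, with the hearts of c1164 and c1190 as open circles. Endothelial, erythroid and mesothelial sums are higher in each heart than in each skeletal muscle library, adipocyte sums are lower, and the germ cell sums of the 2 open circles lie below those of the other 5 hearts.

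The contrast was then measured in the 38 mice of 5 to 26 M, none of which took part in the first comparison. There 7308 genes (65.5%) were higher in heart and 2402 (21.5%) in skeletal muscle, and with TMM 4645 (41.6%) and 4738 (42.4%). Of the 5611 genes higher in heart at 3 M, 5564 (99.2%) were higher in heart at the other ages, where they made up 76.1% of the genes called in that direction. Of the 1465 genes higher in skeletal muscle at 3 M, 1456 (99.4%) were so at the other ages, 60.6% of that list, and no gene was called in opposite directions. With TMM at both, 2921 of 2968 (98.4%) and 3213 of 3234 (99.4%) were shared, and again none was opposite. *Myh6* differed by 11.11 ± 0.32 there, *Myh4* by -13.74 ± 0.41, *Tnni3* by 11.01 ± 0.31 and *Ryr1* by -9.47 ± 0.11. At 3 M the SE was smaller for *Myh6* (0.20) and *Tnni3* (0.13) despite fewer mice, so these genes varied more among the 38 mice. For *Myh4* (0.68) and *Ryr1* (0.14) it was larger at 3 M. The libraries of the other ages were not searched for reads identical to those of another organ. When the difference between the organs was compared between the 7 mice of 3 M and the 38 others, no gene passed an adjusted p of 0.05 in limma, and 514 of 11163 had an unadjusted p under 0.05. With the set of the mouse as a term these numbers were 0 and 830. That set was taken from the heart values themselves, so it is not an independent term. That no gene passed does not show that the organs differ equally at all ages.

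**Figure D5:**
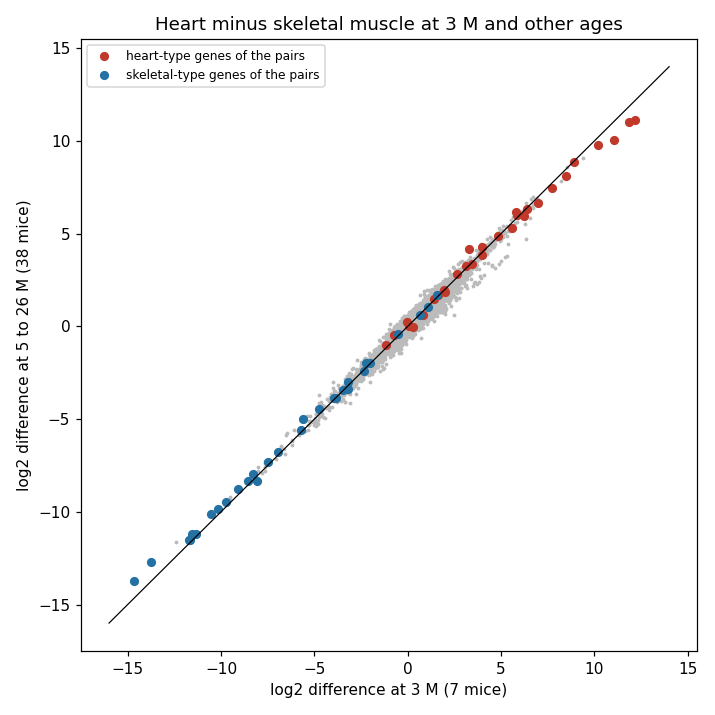
Log2 difference (heart minus skeletal muscle, in RPM) in the 7 mice of 3 M (x axis) and in the 38 mice of 5 to 26 M (y axis). Grey points are all 11163 tested genes, red and blue points the heart-type and skeletal-type genes of 30 of the 31 paralogue pairs tested, and the line marks equal differences. Some of the genes with the largest differences at 3 M lie nearer to 0 at the other ages, as *Myh6* does (12.15 against 11.11).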

How the data were processed

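Per the labels and the study's methods, hearts and skeletal muscles were flash frozen, polyadenylated RNA was made into libraries with PCR and without molecular identifiers, and single reads were trimmed, aligned to GRCm38 with HISAT2 2.1.0 and counted on Ensembl genes. The authors deposited these counts divided by DESeq2 size factors set within each organ, a signal that is not comparable between organs. All values gave whole reads within 0.001 of a read, so each column was scaled to 1000000 (RPM). Genes at 5 RPM in 5 or more of the 14 columns were tested with limma 3.58.1 (R 4.3.3; trend on, robust off) on log2(value + 1), with the mouse as a fixed block, two-sided. A mouse number marks 1 animal, and the deviations of its 2 libraries correlated at 0.06 to 0.42. edgeR 4.0.16 and DESeq2 1.42.0 on the recovered reads were alternatives, and the tests were checked on simulated counts. Intervals and floors cover counting error only. The members and gene lists were chosen with earlier results of these data known.

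Genes named are the isoform pairs, up to 4 called and 2 not called members of each list by size of difference, and the 10 largest differences in each direction. *Agrn*, *Aldoa*, *Cacng1*, *Ckmt2*, *Corin*, *Fabp3*, *Fndc5*, *Hcn4*, *Myh1*, *Myh3*, *Myh8*, *Myh13*, *Myod1*, *Myog*, *Pdk4*, *Pfkm*, *Ryr3*, *Slc8a1*, *Slc8a3*, *Stac3* and *Ucp3* fall outside this rule and were added after their values were seen. Promoters came from RefSeq, and overlaps of genes from GENCODE M21. Some genes of these lists and pairs are not reported here by name.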

Additional observations from a re-analysis of the deposited data

Results flagged for a closer look

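The 143 tested genes named were searched, organ by organ, for a library whose gap to the next, on the log2 scale, took a share of the range of the 7 libraries above Dixon's 95% critical value. For normally distributed values chance flags about 1 group in 20. That rate does not hold for groups near 0, such as *Lbx1* and *Myf6* in heart, each with 1 read over the 7 hearts. In 282 groups with any spread, 33 flagged values were found. The heart of c1164 held 11 of them, in RPM: *Cacna1s* at 0.269, *Clcn1* at 0, *Ldha* at 228, *Myh13* at 3.58, *Oxct1* at 1134, *Pax7* at 1.97, *Slc6a8* at 39.8, *Thbs4* at 1.25, *Tmod4* at 1.52, *Tpm3* at 465 and *Ucp3* at 2.06. This is the heart with the lowest correlation with the others. The skeletal muscle of c953, the muscle library with the lowest median correlation with its group (0.92), held 8: *Cacna1s* at 152, *Clcn1* at 55.7, *Corin* at 5.61, *Dsp* at 8.36, *Fndc5* at 41.2, *Kcnj5* at 1.06, *Mylk3* at 6.35 and *Pygm* at 3462. The skeletal muscle of c1164 held 6: *Acta1* at 28074, *Idh2* at 308, *Kcnj2* at 173, *Nppa* at 0.955, *Slc2a4* at 697 and *Tpm1* at 33525. The others were *Atp2a2* at 90.0 in the muscle of c1190, *Cacng1* at 0.779 in the heart of c940, *Lbx1* at 0.0966 in the heart of c1190, *Myf6* at 0.126 in the heart of c2908, *Myh1* at 0.851 in the heart of c1030, *Myh13* at 25.8 in the muscle of c1114, *Oxct1* at 590 in the muscle of c940 and *Pygb* at 10.9 in the muscle of c1030. The source of these values was not tested.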

How the results depend on the processing

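The counts of genes higher in heart and in skeletal muscle, 5611 and 1465, depended on the scaling. They were 2968 and 3234 with TMM, 3069 and 3133 with DESeq2 size factors, 2888 and 3097 in edgeR's quasi-likelihood test with TMM and 3173 and 3195 in the DESeq2 Wald test. In the 38 other mice TMM gave 4645 and 4738 in place of 7308 and 2402. The other settings kept both counts within 1.5 times: 5524 and 1449 with a pseudocount of 0.1, 6078 and 1876 with no filter, 5263 and 1311 without the pairing by mouse (no replicate block), 5408 and 1379 without the mice of the suffix b, and 5032 to 5761 and 1306 to 1452 with each mouse left out in turn. Chosen after seeing the data were the first set of mice alone (5226 and 1446), the second (4884 and 1344) and the 8922 genes with under 10% of exonic bases inside others (4637 and 1177).

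Among the 143 tested genes named, no gene called in RPM was called in the other direction under any of these settings. Genes that did not pass the test changed sign with TMM: *Cox8b* -0.31, *Dcn* -0.52, *Igf1* -0.48, *Kcnj2* -0.39, *Lrp4* -0.16, *Ndufs7* -0.48, *Nrf1* -0.49, *Pdk4* -0.46, *Ryr3* -0.076, *Slc6a8* -0.33, *Thrb* -0.45, *Tmod1* -0.51 and *Tpm3* -0.17. With DESeq2 size factors these were *Cox8b* -0.28, *Dcn* -0.50, *Igf1* -0.46, *Kcnj2* -0.36, *Lrp4* -0.14, *Ndufs7* -0.45, *Nrf1* -0.47, *Pdk4* -0.44, *Ryr3* -0.056, *Slc6a8* -0.30, *Thrb* -0.43, *Tmod1* -0.49 and *Tpm3* -0.15. Without the mice of the suffix b they were *Hrc* 0.20, *Igf1* -0.13, *Myom2* 0.14, *Nrf1* -0.067 and *Thrb* -0.11. With each mouse left out in turn, the ranges of the genes that changed sign were *Dcn* -0.16 to 0.28, *Eno1* -0.15 to 0.066, *Hrc* -0.30 to 0.052, *Igf1* -0.029 to 0.17, *Myom2* -0.15 to 0.084, *Ndufs7* -0.028 to 0.16, *Nrf1* -0.045 to 0.18, *Pdk4* -0.33 to 0.38 and *Tmod1* -0.067 to 0.13. *Ckmt2* and *Cox7a1* lost their calls with both of these scalings, *Hk2* with both, without the filter, without the block and without the mice of the suffix b (0.45), and *Tpm1* without the filter. *Slc6a8* gained a call without the mice of the suffix b (0.68). The block changed no other call of the named genes.

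The planned share of reads on mitochondrial mRNAs and the alternative that leaves them out were not run, since these genes are listed at 0. Whether the median gene differs between the organs cannot be read from these data, because the scaling sets it. Libraries of 5134683 reads give a floor of 0.584 RPM for 3 reads, so differences of genes near that level were not detectable at this depth.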
